A study of Mus musculus with 4 samples.

Results

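A small group of glutamatergic nuclei that carry transcripts of *Shisa8*, *Igdcc3*, *Pappa* and *Stat4* was followed in single-nucleus RNA-seq of mouse brain. Transcripts were counted as UMIs (unique molecular identifiers). Barcodes entered the work where over 600 genes were detected and mitochondrial genes made under 5% of UMIs. A nucleus was a member if it held at least 1 UMI of *Slc17a7*, the vesicular glutamate transporter VGLUT1, and at most 1 UMI of *Gad1* and *Gad2* together. It also had to hold at least 1 UMI each of at least 3 of 7 genes: *Shisa8*, *Igdcc3*, *Pappa*, *Stat4*, *9330158H04Rik*, *Itprid1* and *Evc*. The rule found 200 members among 36094 kept nuclei, of which 19737 met the *Slc17a7* and *Gad* conditions and are called excitatory here. The working label of this group was retrosplenial and parahippocampal upper-layer neurons, and that name was checked against genes the rule did not use.

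Cortex and hippocampus came from 5-week-old mice, and FACS-sorted nuclei were profiled with the 10x Genomics 3′ chemistry in 4 libraries. Libraries labelled Sel1L flox/flox (Sel1L-fl/fl, replicates 1 and 2) came from mice with both *Sel1L* alleles flanked by loxP sites and were the controls. Those labelled Sel1L Syn-Cre (Sel1L-SynCre, replicates 1 and 2) carried the same floxed alleles and a Cre driven by the *Synapsin I* promoter on a C57BL/6J background. That driver acts in postmitotic neurons, and whether a given nucleus recombined was not measured. No treatment was given. With 2 libraries per label, p values measure only the spread between these libraries.

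The retrosplenial cortex lies on the midline behind the cingulate cortex, links the hippocampal formation with thalamic and cortical areas, and takes part in spatial memory and navigation. Its superficial layers hold densely packed small glutamatergic neurons, and *Tshz2*, a zinc finger transcription factor, is widely used to mark retrosplenial glutamatergic types. SEL1L is the cofactor of the ubiquitin ligase HRD1 in ER-associated degradation (ERAD), which moves misfolded proteins out of the ER for destruction by the proteasome. When misfolded proteins gather, cells can switch on the unfolded protein response, which raises ER chaperones such as *Hspa5* and ERAD genes such as *Herpud1* and *Derl3*.

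The libraries held 74082610 to 122870443 UMIs in 7366 to 12599 barcodes. Pairs of libraries shared 10 to 34 barcode sequences, and no member barcode was shared. Replicate 1 of both labels held *Uty*, a Y-linked gene, at 142 and 138 CPM (UMIs scaled to the total of the set of nuclei). Replicate 2 of both labels held *Xist*, the RNA of the inactive X chromosome, at 1623 and 1488 CPM. The Cre feature of the reference gave 490 UMIs in kept nuclei of 1 control, Sel1L-fl/fl replicate 1, and 0 in Sel1L-fl/fl replicate 2, beside 262 and 260 in the libraries labelled Sel1L-SynCre. Because 1 control library held Cre transcripts, the share of members, the counts of genes called and the main ER genes are also given without it, and "the libraries labelled" is meant wherever a label is named.

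The members held low counts of the genes that chose them. *Igdcc3*, an immunoglobulin superfamily membrane protein (GRCm38 chromosome 9, 65141189 to 65185872, plus strand), had a UMI in 69.2%, 69.2%, 61.8% and 72.2% of members. Values for 4 libraries are always ordered as both controls, then both Sel1L-SynCre libraries, each by replicate number. In the other excitatory nuclei the same shares were 5.29%, 3.43%, 4.73% and 4.85%. *Pappa*, a secreted protease of insulin-like growth factor binding proteins (chromosome 4, 65124174 to 65357509, plus strand), was found in 39.4%, 46.2%, 58.8% and 41.7% of members. These genes were used by the rule, so their levels are a description. *Stat4*, a transcription factor of cytokine signalling, gave only 83 UMIs in all members, and *Shisa8*, an AMPA receptor auxiliary protein, only 32. *Evc*, a protein of the primary cilium, gave 156. Of the members, 139 held exactly 3 rule genes, 51 held 4, 9 held 5 and 1 held 6. The long noncoding RNA *9330158H04Rik* (chromosome 6, 36209620 to 36390191, minus strand) overlaps *Chrm2* on the opposite strand, so levels of *Chrm2* are not independent of the rule if reads were assigned to the wrong strand.

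Just inside the threshold, the 139 nuclei with exactly 3 rule genes had a median of 11133 UMIs, and 87.1% held *Tshz2*. Just outside it, the 634 excitatory nuclei with exactly 2 rule genes had a median of 12128 UMIs, and 65.1% held *Tshz2*. *Htr2c*, the serotonin 2C receptor, was found in 71.2% and 44.3% of these nuclei.

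Among genes the rule did not use, some of the retrosplenial list were higher in members, and none of the parahippocampal list were. *Tshz2* (chromosome 2, 169633013 to 170071816, plus strand) stood at 1572, 1629, 1680 and 1321 CPM in members and at 507, 346, 438 and 344 in the other excitatory nuclei. It was higher in all 4 libraries, with a ratio of means of 3.79. *Slc17a6*, the second vesicular glutamate transporter VGLUT2, stood at 56.1, 78.6, 56.3 and 49.6 CPM in members, a ratio of 5.92 to the other excitatory nuclei. *Cxcl14*, a chemokine, was also higher in all 4 libraries at a ratio of 3.78, from only 27 UMIs. *Scnn1a*, a sodium channel subunit, was higher in 3 libraries from 12 UMIs, and *C1ql2* gave 2 UMIs and was not higher. Of the 5 retrosplenial genes, 3 were therefore higher in every library. Most of this support rests on *Tshz2* and *Slc17a6*. They were not compared with every other excitatory type, and the origin of the nuclei was not measured.

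All 8 genes of the entorhinal and parahippocampal list were lower in members in every library. *Reln*, the secreted glycoprotein reelin, was at 0.29 times the level of the other excitatory nuclei and *Etv1*, a transcription factor, at 0.25 times. *Reln* gave 22 UMIs where 84.6 would have been counted at the level of the other excitatory nuclei, and *Etv1* 78 where 282 would have been. *Lef1* and *Cbln1* had 0 UMIs in members, where 9.51 and 1.51 would have been counted, so *Cbln1*, and to a lesser degree *Cbln4* and *Wfs1*, carry little weight in the count of 8. The nuclei are therefore named here by the rule and not by a parahippocampal origin. The upper-layer part of the label was not borne out by its list, in which 1 of 6 layer 2/3 IT genes was higher and 3 were lower in all 4 libraries. *Cux2*, a transcription factor of upper-layer neurons, was higher in all 4 libraries at a ratio of 1.33, while *Otof*, a layer 2/3 marker, was at 0.35 times. Outside that list, *Neurod6*, a transcription factor of cortical projection neurons, was higher in all 4 libraries at a ratio of 1.78. All 4 layer 6 corticothalamic genes were lower in every library.

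**Figure D1:**
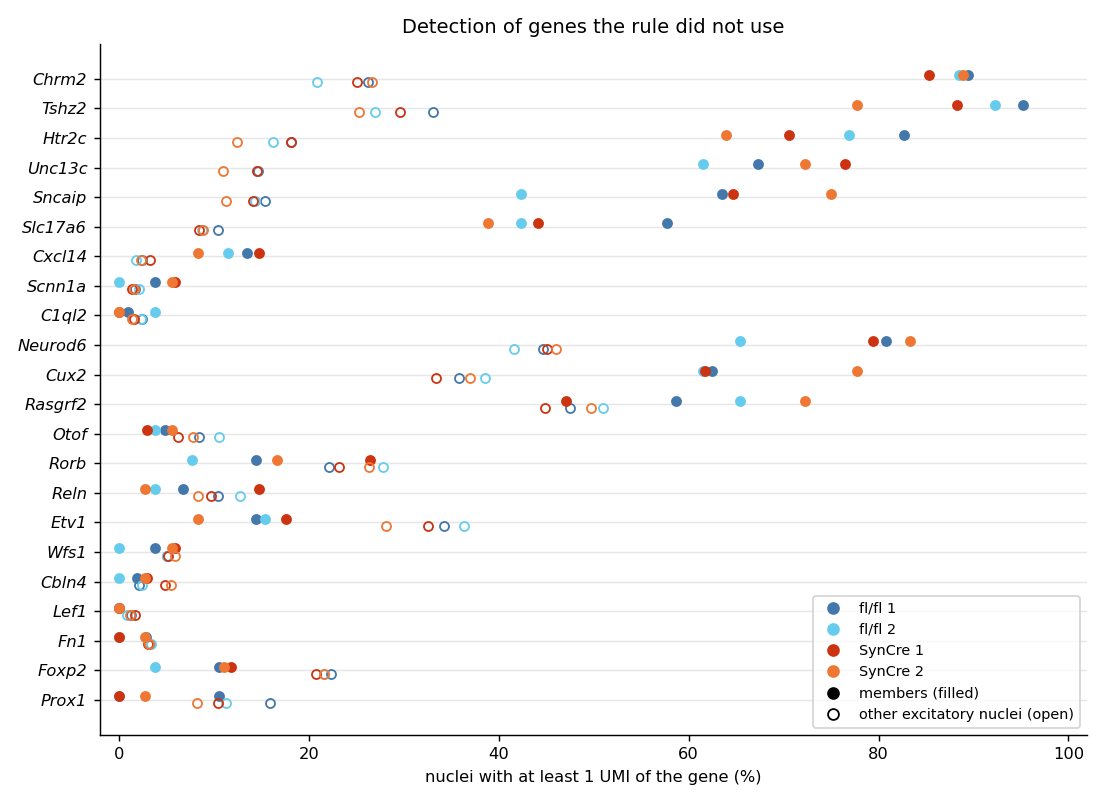
Share of nuclei with at least 1 UMI of each gene (x axis, percent) for genes the rule did not use (y axis), in members (filled points) and other excitatory nuclei (open points) of each of the 4 libraries. *Tshz2* was found in 77.8% to 95.2% of members and in 25.3% to 33.0% of other excitatory nuclei, while *Reln* and *Etv1* lie lower in members than in other excitatory nuclei for most libraries.

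All genes but the 7 rule genes were ranked by their ratio to the other excitatory nuclei, so genes of the marker lists, such as *Tshz2* and *Slc17a6*, were included. Among 5154 genes with at least 100 UMIs in members, rule genes included, 837 were higher and 1008 lower in all 4 libraries. The highest ratio was that of *Htr2c*, which stood at 320, 925, 394 and 301 CPM. Its level in Sel1L-fl/fl replicate 2 lay far above the other 3 libraries, and its ratio to the other excitatory nuclei was 7.51. *Chrm2*, the muscarinic M2 receptor, stood at 299, 396, 298 and 354, a ratio of 5.39. *Unc13c*, a vesicle priming protein, stood at 189, 173, 263 and 212, a ratio of 5.32. *Sncaip*, which encodes the alpha-synuclein partner synphilin-1, followed at a ratio of 5.21, *Rnf152*, a lysosomal ubiquitin ligase, at 4.46 and *Sv2c*, a synaptic vesicle glycoprotein, at 4.0. Among genes at 100 CPM or more in the other excitatory nuclei, the lowest ratios were those of *Foxp2* (ratio 0.224) and *Bcl11b* (ratio 0.283). Both are transcription factors of deep-layer neurons and stand on the marker lists. These comparisons between sets of nuclei are descriptions with no test.

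The members were also unlike the nuclei of the neighbouring upper-layer types. Pooled over libraries, 4062 excitatory nuclei held at least 3 of 6 layer 2/3 intratelencephalic (IT) genes without meeting the rule. Their *Tshz2* stood at 266 CPM, their *Slc17a6* at 8.94 and their *Htr2c* at 39.2. In 2823 nuclei chosen by layer 4/5 IT genes, *Tshz2* stood at 461, *Slc17a6* at 10.55 and *Htr2c* at 47.5. All 3 genes were lower in both sets than in any library of members.

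The 200 members were not one uniform set. When all excitatory nuclei were clustered, 107 members fell in 1 cluster of 544 nuclei, 23 in another of 199 nuclei, and the other 70 were spread over 24 clusters. The larger cluster was led by *Shisa8*, *Pappa*, *Col6a5* and *Fam163a*. The smaller was led by *Col6a5*, a collagen VI chain, *Pde3a*, a cyclic nucleotide phosphodiesterase, and the RNA *Gm12132*, and its leading genes included the glycine receptor subunit *Glra3*. A cluster's leading genes are part of how it was made and carry no test. Members of the larger cluster had a median of 8321 UMIs, those of the smaller 12625, and those outside both clusters 26007. The 70 outside members supplied 60.3% of all member UMIs. Doublet scoring marked 39 of them, 1 member of the smaller cluster and 0 of the larger, which made 20% of members against 8.74% of the other excitatory nuclei. The mixture differed by library, with 36, 5, 15 and 14 outside members holding 1190005, 131376, 292376 and 372196 UMIs. Of the 104, 26, 34 and 36 members of the libraries, 26, 1, 8 and 5 were doublet-scored. *Tshz2* was found in 72.9% of the outside members, *Rorb*, a layer 4 transcription factor, in 35.7% and *Foxp2* in 27.1%. Of the 128 *Foxp2* UMIs in members, 127 lay in outside members. Since every sum over members rests largely on these deep nuclei, results are also given for all 743 nuclei of the 2 clusters, a set added after the data were seen.

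**Figure D2:**
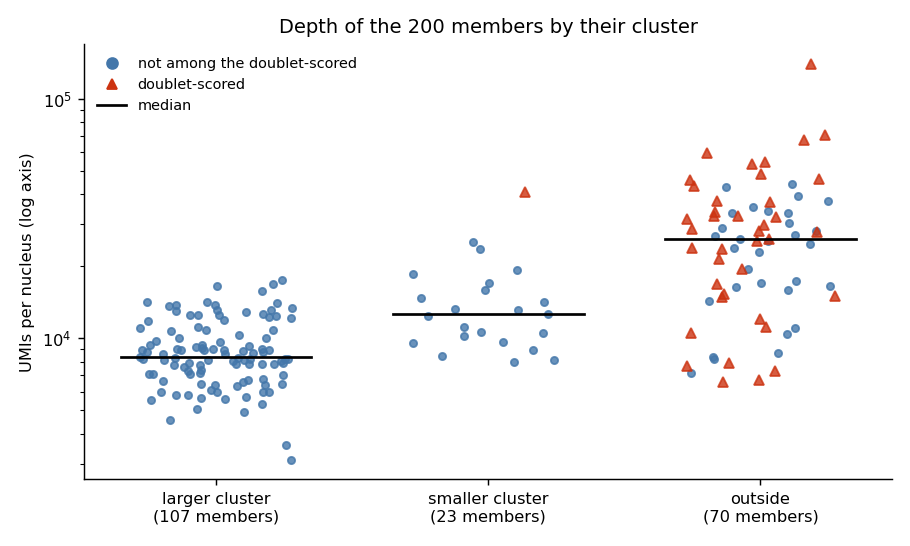
UMIs per nucleus (y axis, log scale) for each of the 200 members by place: the larger cluster, the smaller cluster, or outside both. Triangles are doublet-scored nuclei and lines are medians, which rise from 8321 to 12625 and 26007, with 39 of the 40 triangles outside the clusters.

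The first comparison between labels asked whether these nuclei were more or less common without *Sel1L*. Members made 1.60% of the excitatory nuclei in Sel1L-fl/fl replicate 1 (104 of 6493, Wilson 95% interval 1.32 to 1.94), 0.580% in Sel1L-fl/fl replicate 2 (26 of 4483, 0.396 to 0.848), 0.778% in Sel1L-SynCre replicate 1 (34 of 4371, 0.557 to 1.08) and 0.820% in Sel1L-SynCre replicate 2 (36 of 4390, 0.593 to 1.13). These intervals cover counting error only. The 2 control libraries differed from each other by more than either differed from the Sel1L-SynCre mean, and the Sel1L-SynCre values lay between them. The mean share was 1.09% ± 0.722 (SD, n = 2) in Sel1L-fl/fl and 0.799% ± 0.0298 in Sel1L-SynCre, a difference of −0.292 percentage points with p = 1.0 in a two-sided exact permutation test. With 2 libraries against 2, the smallest p that test can give is 0.333.

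The rule needs UMIs of scarce genes, so a deeper nucleus meets it more easily. With each nucleus thinned to 4000 UMIs, the shares were 0.260% (12 of 4610), 0.134% (4 of 2981), 0.173% (5 of 2888) and 0.0986% (3 of 3043), and the exact permutation p was 0.667. Thinning left out 3356, 2351, 2139 and 1419 shallower nuclei of any type. Without Sel1L-fl/fl replicate 1 the difference turned to 0.219 percentage points. A change in the share of these nuclei was not detectable with these libraries.

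**Figure D3:**
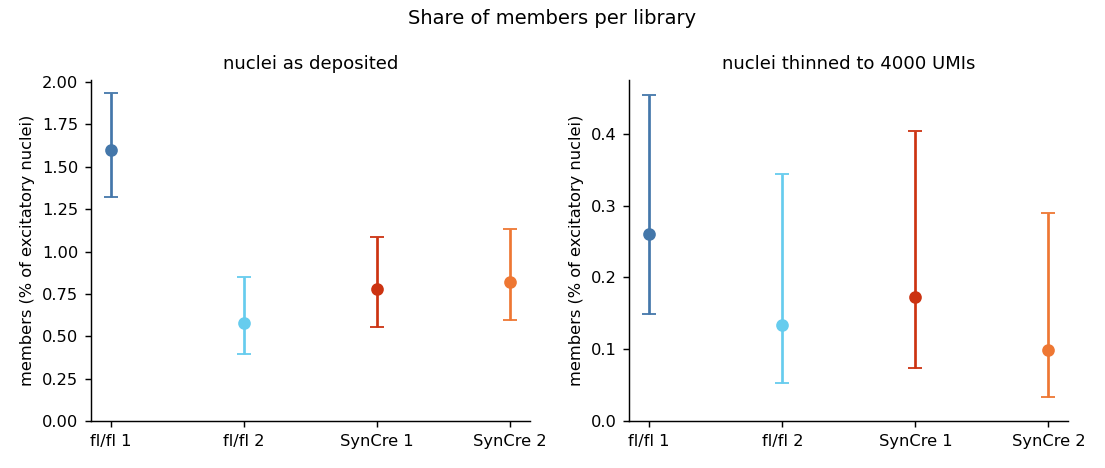
Members as a percentage of excitatory nuclei (y axis) in each of the 4 libraries (x axis), as deposited (left) and after thinning to 4000 UMIs per nucleus (right), with Wilson 95% intervals. Sel1L-fl/fl replicate 1 stands at 1.60% and the other libraries between 0.580% and 0.820% on the left.

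The targeted gene did not differ between labels in members. *Sel1l* gave 160, 29, 43 and 53 UMIs, or 85.5, 91.2, 86.5 and 87.7 CPM. The log2 fold change of Sel1L-SynCre over Sel1L-fl/fl was −0.01 (SE 0.23, adjusted p = 0.998, edgeR's quasi-likelihood test with Benjamini-Hochberg adjustment). In the other excitatory nuclei it was 0.36 (SE 0.11, adjusted p = 0.217, same test), and the difference between both responses was −0.34 (SE 0.23, adjusted p = 0.979). Reads were counted over the whole gene and need not lie in the floxed exon, so this level does not check the labels. The Cre feature gave 4, 0, 0 and 0 UMIs in members. At the level of the other excitatory nuclei, 2.16 UMIs would have been counted in the Sel1L-SynCre members, so the absence of Cre UMIs there was within counting error.

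The main comparison asked which genes of these nuclei changed with the label. Counts were summed over the members of each library, 104, 26, 34 and 36 nuclei with 1871904, 317957, 497165 and 604191 UMIs. None of 7572 tested genes passed edgeR's quasi-likelihood test at an adjusted p of 0.05 (0% called), with 360 at an unadjusted p under 0.05 (4.75%) and 0 by DESeq2. In the other excitatory nuclei of the same libraries, 49 of 20056 genes passed (0.244%), in the layer 2/3 IT-rule nuclei 61 of 16573 (0.368%) and in the layer 4/5 IT-rule nuclei 86 of 15556 (0.553%). The summed counts of those sets were far larger. Of the 49 genes, 18 had enough counts to be tested in members and 11 had fewer than 10 UMIs. Of the 61 layer 2/3 genes, 38 could be tested in members. Without Sel1L-fl/fl replicate 1, 27 of 8009 genes passed in members (0.337%), among them *Homer1* (adjusted p = 0.00889, edgeR quasi-likelihood test) and *Zfp804b* (adjusted p = 3.66e-05). *Xist*, *Uty* and *Eif2s3y* were also called in this fit, although they split the Sel1L-SynCre libraries. In the nuclei of the 2 clusters the same fit did not call them. With 1 control left, the calls of this fit, *Homer1* and *Zfp804b* included, carry little weight.

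The genes nearest the threshold are given as values, since none passed. *1700016P03Rik*, a noncoding RNA on chromosome 11 (75172560 to 75177633, plus strand) whose locus holds the activity-induced microRNAs *Mir212* and *Mir132*, stood at 21.9, 28.3, 68.4 and 84.4 CPM, with no overlap between labels. Its log2 fold change was 1.70 (SE 0.30, adjusted p = 0.352, edgeR quasi-likelihood test), and in the other excitatory nuclei it rose by 2.07 (SE 0.19, adjusted p = 0.0279). *Homer1*, a postsynaptic scaffold gene with an activity-induced short form, stood at 184, 164, 372 and 346, a log2 fold change of 1.03 (SE 0.19, adjusted p = 0.352). In all nuclei of the 2 clusters it was 0.43 (adjusted p = 0.525), and in the other excitatory nuclei *Homer1* rose by 1.13 (adjusted p = 0.0412, same test). *Rorb* stood at 72.1, 72.3, 145 and 141, a log2 fold change of 0.98 (SE 0.22, adjusted p = 0.469, same test). Both Sel1L-SynCre libraries lay above both controls for all 3 genes, a pattern that 33.7% of the 7572 genes had in one direction or the other. Of the 315 *Rorb* UMIs in members, 289 lay in the 70 members outside both clusters. In all nuclei of the 2 clusters its log2 fold change was −0.47.

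On the lower side, *Zfp804b*, a zinc finger gene on chromosome 5 (6769010 to 7344756, minus strand), stood at 174, 255, 76.4 and 96.0 CPM, a log2 fold change of −1.27 (SE 0.24, adjusted p = 0.352, edgeR quasi-likelihood test). *Slc24a3*, a sodium, potassium and calcium exchanger, stood at 193, 157, 88.5 and 64.5 and had a log2 fold change of −1.23. *Rgs11*, a regulator of G protein signalling, stood at 93.5, 101, 42.2 and 34.8 with a log2 fold change of −1.32. The labels did not overlap for these genes either. In nuclei with at least 2 rule genes the log2 fold changes were −0.06 for *Zfp804b*, −0.11 for *Slc24a3* and −0.69 for *Rgs11*. In all nuclei of the 2 clusters they were −2.18, −0.28 and −0.71. The other genes of the 16 with the lowest p ranged from 1.01 (*Sntb2*, a syntrophin) to 3.21 (*Dnah14*, a dynein chain, 40 UMIs in all) on the higher side. Those on the lower side ranged from −1.68 (*Nkain3*) to −3.36 (*Prr5l*), with *Chst9*, *Kif26b* and *St18* between them. Some of them rested on few UMIs, such as 9 and 4 for *Chst9* in the Sel1L-SynCre libraries.

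The ER stress genes *Hspa5*, *Herpud1*, *Derl3* and *Sdf2l1*, which rose in the other excitatory nuclei, were not detectably changed in members. *Hspa5*, the ER chaperone BiP, gave 35, 6, 30 and 17 UMIs, or 18.7, 18.9, 60.3 and 28.1 CPM. Its log2 fold change in members was 1.21 (SE 0.42, adjusted p = 0.990, edgeR quasi-likelihood test), beside 1.08 (SE 0.13, adjusted p = 0.0383) in the other excitatory nuclei. The difference between these responses was 0.11 (95% interval −0.63 to 0.86). *Herpud1*, a membrane component of ERAD complexes, stood at 19.8, 25.2, 28.2 and 26.5 CPM in members, a log2 fold change of 0.37 (SE 0.39) beside 1.05 (SE 0.12) in the other excitatory nuclei. The difference was −0.71 with a 95% interval from −1.47 to 0.05, which includes 0. In the nuclei of the 2 clusters the log2 fold change was 0.83 for *Hspa5* (SE 0.26) and 0.23 for *Herpud1* (SE 0.28). The difference of responses there was −0.26 for *Hspa5* (95% interval −0.75 to 0.22) and −0.88 for *Herpud1* (−1.44 to −0.33). None of these passed after adjustment. Without Sel1L-fl/fl replicate 1, *Hspa5* was at 1.19 and *Herpud1* at 0.12 in members. In the other excitatory nuclei the adjusted p without it was 0.0616 for both and 0.0552 for *Sdf2l1*, so none of these passed, and 0.040 for *Derl3* (same test).

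*Derl3*, an ER membrane protein of the degradation pathway (chromosome 10, 75893413 to 75895941, plus strand), had the widest gap between both responses of these 4 ER genes when members were compared. The other excitatory nuclei held 49, 28, 536 and 375 UMIs of it, a log2 fold change of 3.89 (SE 0.28, adjusted p = 0.0192, edgeR quasi-likelihood test). Members held 3, 0, 2 and 0 UMIs. At the level of the other excitatory nuclei, 9.30 UMIs would have been counted in the Sel1L-SynCre members, where 2 were. In the nuclei of the 2 clusters 4 were counted where 16.8 would have been. The layer 2/3 IT-rule nuclei held less *Derl3*, with a log2 fold change of 2.83. Pooled over the Sel1L-SynCre libraries, their level was 4.89 CPM, beside 8.45 in the other excitatory nuclei. Fewer UMIs would therefore have been counted at the layer 2/3 level. The difference of responses from the other excitatory nuclei was −3.42 in members (SE 1.498) and −2.40 in the nuclei of the clusters (SE 1.07). Neither passed after adjustment (adjusted p = 0.979 and 0.90, edgeR quasi-likelihood test). Against the layer 2/3 IT-rule nuclei it was smaller, −2.33 in members (SE 1.53) and −1.35 in the nuclei of the clusters (SE 1.11). Neither of these passed (adjusted p = 0.946 and 0.898, same test), so a weaker response particular to these nuclei was not shown. *Sdf2l1*, an ER chaperone cofactor, also gave 3, 0, 2 and 0 UMIs in members. In the nuclei of the 2 clusters it gave 3, 0, 9 and 5 UMIs, a pooled level 9.76 times higher in the Sel1L-SynCre libraries. Its difference of response from the other excitatory nuclei was 1.12 there (SE 0.87), which did not pass after adjustment. *Fam129a*, a stress-induced gene, gave 0, 0, 6 and 4 UMIs, at least 6.63-fold higher in the Sel1L-SynCre libraries against a floor of 3 counts over both controls.

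By list, 0 of the 132 list genes tested in members passed. In the ERAD list 10 of 15 genes were tested and had a median log2 fold change of −0.03, and 9 of 14 ER chaperones and folding enzymes had a median of 0.29. In the other excitatory nuclei the chaperone median was 0.70 over all 14 genes, so it covers more genes, and 3 of 14 passed. The 4 tested sensors and transcription factors of the unfolded protein response had a median of −0.09, and the 5 tested ATF4 targets, genes of the amino acid response, a median of 0.34. Aminoacyl-tRNA synthetases (10 tested) had a median of 0.05, one-carbon metabolism genes (6) −0.23 and cholesterol synthesis genes (5) 0.12. Every one of these medians rests on the more abundant genes of its list.

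Immediate early genes, which neurons switch on with activity, had the highest median of the lists. Their 7 tested genes of 14 had a median log2 fold change of 0.97, and 5 had an unadjusted p under 0.05. In the other excitatory nuclei all 14 were tested, with a median of 0.55, so these medians cover different genes. *Nr4a1*, a nuclear receptor, stood at 39.5, 50.3, 78.4 and 89.4 CPM, a log2 fold change of 0.97 (SE 0.27, adjusted p = 0.766, edgeR quasi-likelihood test). *Bdnf*, a neurotrophin, stood at 16.6, 37.7, 74.4 and 34.8, with the labels overlapping. *Arc*, a synaptic plasticity gene, stood at 18.2, 3.15, 18.1 and 56.3, also overlapping. *Egr1*, another gene of the list, had a log2 fold change of 0.12. The median of the list was 0.32 over 11 tested genes in the nuclei of the 2 clusters, and 0.91 in members without Sel1L-fl/fl replicate 1.

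The medians of the neuronal signalling lists lay near 0, with genes on both sides. The 15 ionotropic glutamate receptor genes had a median log2 fold change of −0.07 (range −1.40 to 0.17), the 11 tested GABA-A receptor genes −0.02 (−0.22 to 0.53) and the 17 voltage-gated potassium channel genes 0.04 (−0.45 to 0.79). The 27 tested axon guidance and adhesion genes had a median of −0.09 (−1.17 to 0.42), with 2 higher and 5 lower at an unadjusted p under 0.05. The 6 tested glucocorticoid-responsive genes had a median of 0.31.

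**Figure D4:**
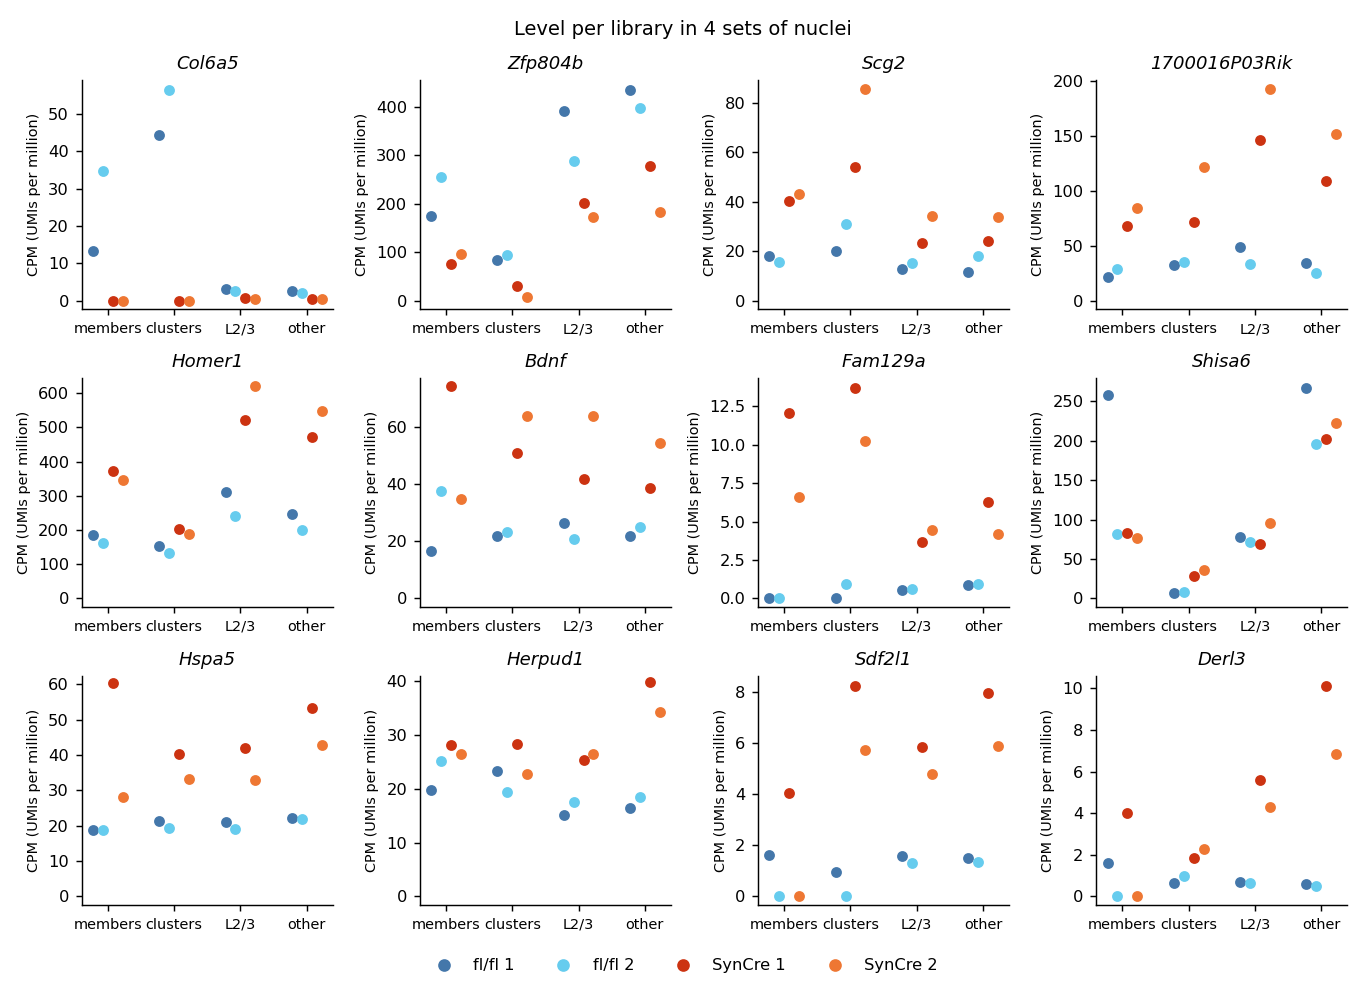
CPM (y axes) of 12 genes in members, nuclei of the 2 clusters, layer 2/3 IT-rule nuclei and other excitatory nuclei (x axis), 1 point per library. In the Sel1L-SynCre libraries, *Derl3* is at 6.84 and 10.1 in the other excitatory nuclei and at 0 and 4.02 in members. It is at 4.31 and 5.60 in those libraries of the layer 2/3 IT-rule nuclei. *Col6a5* is at 0 in both Sel1L-SynCre libraries of members.

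*Col6a5* (chromosome 9, 105856078 to 105960643, minus strand) was detected in members of the control libraries only. It gave 25, 11, 0 and 0 UMIs, at least 6.04-fold lower in the Sel1L-SynCre libraries against the floor of 3 counts, and had too few counts for the fit. The rule did not use it. In the other excitatory nuclei it gave 221, 104, 15 and 22 UMIs, a log2 fold change of −2.78 (adjusted p = 0.0383, edgeR quasi-likelihood test). The fall of *Col6a5* was therefore not particular to members. Members of the smaller cluster, which *Col6a5* leads, were present in all 4 libraries, with 10, 6, 4 and 3 nuclei.

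Across all 743 nuclei of the 2 clusters, 368, 133, 135 and 107 by library, 12 of 9825 genes passed (0.122%), 8 higher and 4 lower in Sel1L-SynCre, with 673 at an unadjusted p under 0.05 (6.85%). DESeq2 called 2, *Col6a5* and *1700016P03Rik*. *Col6a5* gave 137, 58, 0 and 0 UMIs, at least 31.1-fold lower, and since it leads both clusters it took part in forming them. *Zfp804b* fell by 2.18 on the log2 scale (SE 0.35) from 83.7 and 94.3 to 30.1 and 6.85 CPM. *Cntnap5b*, a neurexin family adhesion gene, fell by 1.58 (SE 0.27) here, while in members its labels overlapped and its log2 fold change was 0.06. As a measure of RNA from another cell type, the 7 oligodendrocyte markers summed to 142, 115, 67.5 and 79.9 CPM in these nuclei. The same markers summed to 225, 195, 72.4 and 215 in members, and their part in the results was not tested.

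The 8 genes that rose in the nuclei of the clusters are given next. *Bdnf* rose by 1.34 on the log2 scale (SE 0.23, adjusted p = 0.0389, edgeR quasi-likelihood test) from 22 and 23.3 to 51.1 and 63.9 CPM. *1700016P03Rik* rose by 1.5 (SE 0.23) from 32.6 and 35 to 71.1 and 122. *Scg2*, which encodes the neuropeptide precursor secretogranin II, rose by 1.51 (SE 0.27). *Fkbp5*, a cochaperone of the glucocorticoid receptor, rose by 1.43 (SE 0.21), and *Fam129a* rose with 0, 1, 15 and 9 UMIs. *Lgr6*, an R-spondin receptor, rose by 2.59 (SE 0.42) from 3.55 and 3.89 to 19.2 and 26.2, and *Gm47423*, which lies antisense to *Ntrk2*, by 1.45 (SE 0.26). *Shisa6*, an AMPA receptor auxiliary gene, rose by 2.16 (SE 0.33) from 6.78 and 7.78 to 28.3 and 36.5, on 21, 8, 31 and 32 UMIs. In members, where the first control library stood at 259 CPM and the others at 76.1 to 82.5, the log2 fold change of *Shisa6* was −1.22. *Bdnf* and *Fkbp5* also rose in the layer 2/3 IT-rule nuclei (1.13 and 1.44) and the layer 4/5 ones (1.43 and 1.16). *Fam129a* rose by 2.49 and *Gm47423* by 1.62 in the other excitatory nuclei, where *Shisa6* was at −0.17. The rises of *Bdnf*, *Fkbp5*, *Fam129a* and *Gm47423* were therefore not particular to the clusters' nuclei. Without Sel1L-fl/fl replicate 1 only *Col6a5*, *Zfp804b* and *Cntnap5b* of the 12 genes still passed, with 7 of 10504 genes called in all (0.0666%).

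**Figure D5:**
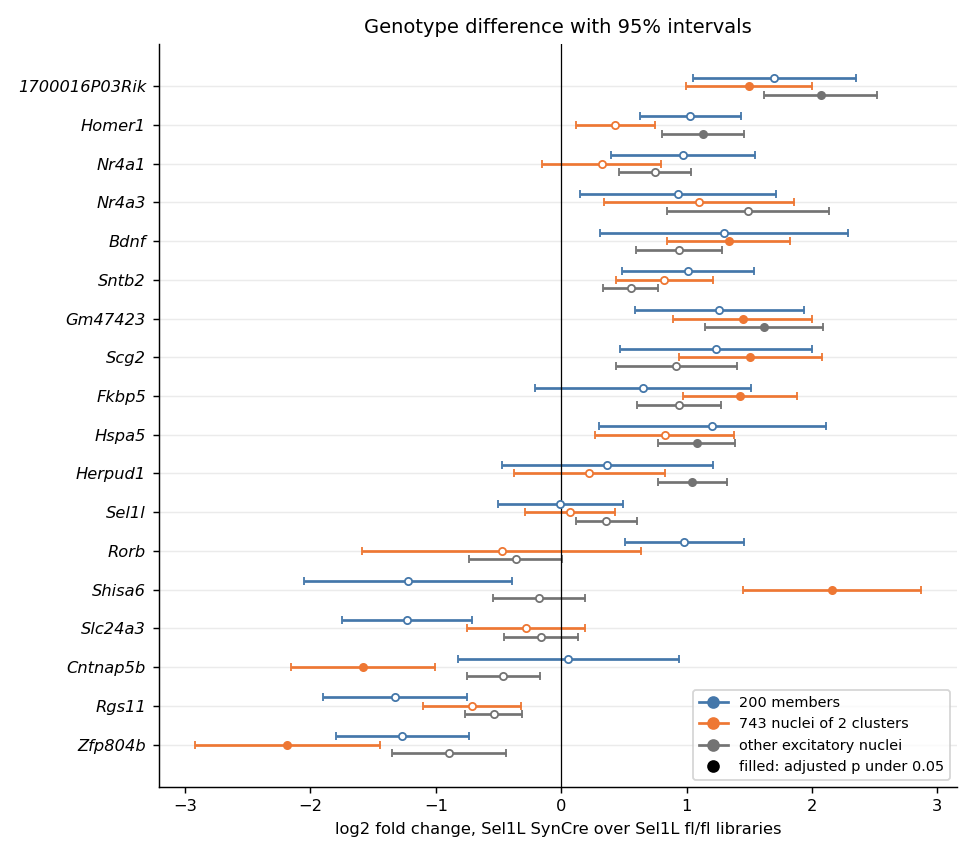
Log2 fold changes of Sel1L-SynCre over Sel1L-fl/fl libraries (x axis) with 95% intervals for 18 genes (y axis) in members, nuclei of the 2 clusters and other excitatory nuclei. Filled points passed at an adjusted p of 0.05, which none did in members, where *1700016P03Rik* was at 1.70 and *Zfp804b* at −1.27.

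The last comparison asked whether members answered to the label differently from other nuclei of the same libraries. None of 18911 genes passed against the other excitatory nuclei (0% called, edgeR quasi-likelihood test with library as a block), with 802 at an unadjusted p under 0.05 (4.24%) and 0 by DESeq2. Against the layer 2/3 IT-rule nuclei, 0 of 16008 passed, with 743 at an unadjusted p under 0.05 (4.64%). The lowest p in the first comparison was that of *Kcnh5*, a voltage-gated potassium channel, which stood at 130, 173, 314 and 195 CPM in members and at 167, 181, 144 and 140 in the other excitatory nuclei. *Rorb* came next, with *6330411D24Rik*, *Slc24a3*, *Myo16*, *Chn2*, *Prr16* and *Lrrc4c* behind it. Of these, *6330411D24Rik* rested on 45 UMIs in Sel1L-SynCre replicate 2 alone, beside 1, 1 and 0 in the other libraries. Against the layer 2/3 IT-rule nuclei, *Gm32647* and *2310002F09Rik* also stood among the 8 lowest, at an adjusted p of 0.533.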

How the data were processed

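Single-nucleus RNA-seq was measured in 4 libraries. The authors deposited UMI counts per gene and barcode, unnormalized, made with Cell Ranger 6.1.0 on GRCm38 per the submitters' processing notes. Barcodes were filtered as the report states, and counts were summed per library and set of nuclei (4 sums a set) before any test. Genes were tested with edgeR 4.0.16 (TMM scaling, filterByExpr, glmQLFit, two-sided, Benjamini-Hochberg adjustment over all tested genes, threshold 0.05). Differences of response used library as a block. DESeq2 1.42.0 was an alternative. Levels are CPM, UMIs scaled to the set's total. Excitatory nuclei were clustered with the Leiden method of python-igraph 0.11.9 (2000 variable genes, 40 components, 20 neighbours, resolution 1.5). Doublets were scored by simulated doublets per library and kept, with their removal as an alternative. The code was tested on simulated data with 200 changed genes.

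The libraries held 74082610 to 122870443 UMIs and members 317957 to 1871904, so only abundant genes could be tested in members. Members and gene lists were chosen with earlier results of these data known. Genes were named as follows: rule and marker genes, and the 10 highest ratios to other excitatory nuclei with at least 100 UMIs. Where fewer than 8 genes passed in a direction, the 8 with the lowest p were added as not passing, as were the 8 lowest in each difference of response, and *Sel1l* and the Cre feature. The genes of the clusters, and *Col6a5*, *Derl3* and *Rorb* counts by place, were singled out after their values were seen. A planned promoter motif count was not run because no gene passed in members. Some results are not reported here.

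The labels do not say whether the replicate numbers pair the libraries, and the main tests did not use the numbers. In members, deviations from the label means correlated at 0.0447 over 7572 genes between libraries of the same number. Such sparse sums cannot show that the numbers carry no structure, since they split *Xist* and *Uty* alike in both labels.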

Additional observations from a re-analysis of the deposited data

Results flagged for a closer look

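In the nuclei of the 2 clusters that hold most members, 2 genes answered to the label differently from the other excitatory nuclei in a test of the difference itself (edgeR quasi-likelihood test, adjusted p = 0.0303 for both). The difference was 2.48 on the log2 scale for *Shisa6* (SE 0.29). In those nuclei *Shisa6* was scarce, with 21, 8, 31 and 32 UMIs, or 6.78, 7.78, 28.3 and 36.5 CPM. It stood at 267, 196, 202 and 223 CPM in the other excitatory nuclei. For *Egfem1* the difference was 0.98 (SE 0.115), from 857, 851, 1252 and 1450 in those nuclei and 1037, 925, 856 and 798 in the others. In the 200 members the difference was −1.02 for *Shisa6* (95% interval −1.61 to −0.43) and 0.31 for *Egfem1* (0.02 to 0.59), and neither passed after adjustment. Against the layer 2/3 IT-rule nuclei, the difference of the clusters' nuclei was 2.13 for *Shisa6* (adjusted p = 0.0556, same test). For *Egfem1* it was 0.78 (adjusted p = 0.122), so neither passed there. Between labels in the clusters' nuclei, *Egfem1* did not pass either (log2 fold change 0.65, adjusted p = 0.0745, same test). Without Sel1L-fl/fl replicate 1, the log2 fold change of *Shisa6* between labels in the clusters' nuclei was 2.03 (adjusted p = 0.171, same test). The cause was not tested.

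The Cre feature was too scarce to be tested between labels in members or in the clusters' nuclei. It gave 490 UMIs in kept nuclei of 1 control library (Sel1L-fl/fl replicate 1), whose label names no Cre, and 0 in Sel1L-fl/fl replicate 2.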

How the results depend on the processing

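The count of 0 genes called in members was the value most open to processing. With at least 2 rule genes 10 genes passed, in the clusters' nuclei 12, with edgeR's likelihood ratio test 18 and with no filter on low counts 47. Leaving out 1 library gave 0 to 88 genes in members (27 without Sel1L-fl/fl replicate 1), 7 to 134 in the clusters' nuclei, 37 to 257 in the other excitatory nuclei, 85 to 577 in layer 2/3 and 37 to 1329 in layer 4/5 IT-rule nuclei. Such fits have 1 library in an arm, assumed to vary like the others. In the clusters' nuclei, DESeq2 called 2 and a minimum of 10 counts left 5. List genes called in members numbered 1 with at least 2 rule genes, 3 in the clusters' nuclei, 1 by the likelihood ratio test, 4 with no filter and 0 to 9 with 1 library left out. For the difference from the other excitatory nuclei, 10 genes passed with at least 4 rule genes, 2 in the clusters' nuclei, 13 with no filter and 0 to 2 with 1 library left out.

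With the replicate number as a block, the count rose to 29 in members, 3 among list genes, 37 in the clusters' nuclei, 575 in the other excitatory nuclei, 319 in layer 2/3 and 534 in layer 4/5 IT-rule nuclei. The numbers also split *Xist* and *Uty* alike in both labels.

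The difference in the members' share turned to 0.253 percentage points with at least 2 rule genes, to 0.035 after thinning to 2000 UMIs and to 0.219 without Sel1L-fl/fl replicate 1 (range −0.803 to 0.219). In members, *Rorb* turned to −0.47 and *Lhfp* to −0.16 in the clusters' nuclei, and *Rorb* was −0.0041 with equal numbers of nuclei. Differences of response turned in the clusters' nuclei for *Kcnh5* (−0.10, and −0.030 against layer 2/3), *Rorb* (−0.20), *Myo16* (−0.039) and *Prr16* (−0.12), with at least 2 rule genes for *Slc24a3* (0.059) and with at least 4 for *Lrrc4c* (−0.00073) and *Gm32647* (−10.17). For *6330411D24Rik* it was −7.05 without doublets and −7.64 to 6.81 with 1 library left out. The causes were not tested.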
